A study of Mus musculus with 6 samples.

Results

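The genes described here encode the proteins of the cytosolic ribosome. They were chosen by symbol: every gene of the count table named Rpl or Rps followed by a number, with an optional paralog letter, plus Rpsa, Rplp0, Rplp1 and Rplp2, without pseudogenes and without the Rps6k kinases. This gave 86 of 24167 genes, 51 for the large subunit and 35 for the small subunit. Expression had no part in the choice. The naming rule leaves out genes such as Fau, Rack1, Rpl36al and Rps27rt, whose products belong to the ribosome under other names or are close copies.

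RNA was sequenced from metastases in the liver of female BALB/c mice that were injected at 6 to 8 weeks of age with 4T1, a breast cancer cell line of the mouse without hormone receptors or HER2. The cells carried either a scrambled hairpin (shSCR, the control) or a hairpin against the palmitoyltransferase gene Zdhhc17 (shZdhhc17), each delivered by a lentiviral pLKO.1 vector with puromycin selection. Each mouse received 500000 cells by hydrodynamic tail vein injection, and metastases were dissected 10 days later, giving 3 libraries per group. Only the injected cells carry a hairpin, so liver, stromal and immune cells of the host in the dissected tissue have intact Zdhhc17 in either group, and p-values measure no more than the spread among these libraries, since the labels do not tie each one to its own animal.

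A cytosolic ribosome holds 1 copy of most of its proteins, and only the acidic stalk proteins Rplp1 and Rplp2 are present in more. Cells make the set in step with each other: their mRNAs are transcribed at high rates, and most begin with a terminal oligopyrimidine tract, a C at the cap followed by an unbroken run of C and T, through which mTORC1 and the RNA-binding protein Larp1 set their translation. Some members have paralogs that take their place in certain tissues or under stress, such as Rpl22l1 for Rpl22 and Rps27l, a target of p53, for Rps27. In tumours, demand for ribosomes follows growth and Myc.

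The pyrimidine run at the transcription start can be read in the RefSeq promoter sequences, which are of the build GRCm38.p6, while the counts were made on GRCm39. The promoter table held 62 of the 86 members, with 74 windows. The sequences below are the 30 bases around the annotated start, 15 on each side, 5′ to 3′ on the gene's strand, with the longest run of pyrimidines that begins with C in capitals. Shown first are Rps6, Rpl28 and Rpl15, with long runs at the start. Then follow Rps27 with Rps27l, Rpl22 with Rpl22l1, Rpl7l1 and Rps3, which are compared below.
Rps6 (chr4:86857353-86857382, minus strand): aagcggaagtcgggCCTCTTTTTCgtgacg
Rpl28 (chr7:4792950-4792979, plus strand): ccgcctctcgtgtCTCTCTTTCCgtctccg
Rpl15 (chr14:18270972-18271001, minus strand): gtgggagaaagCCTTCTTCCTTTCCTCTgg
Rps27 (chr3:90213634-90213663, minus strand): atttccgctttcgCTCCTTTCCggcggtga
Rps27l (chr9:66946071-66946100, plus strand): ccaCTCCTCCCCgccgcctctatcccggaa
Rpl22 (chr4:152324421-152324450, plus strand): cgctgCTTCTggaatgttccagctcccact
Rpl22l1 (chr3:28805493-28805522, plus strand): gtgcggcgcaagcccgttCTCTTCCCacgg
Rpl7l1 (chr17:46782642-46782671, minus strand): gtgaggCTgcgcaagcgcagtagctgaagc
Rps3 (chr7:99483695-99483724, minus strand): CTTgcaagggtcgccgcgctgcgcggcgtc

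A C followed by at least 6 pyrimidines lay within 15 bases of the start in 33 of the 74 member windows (44.6%), against 14.2% of all 32851 windows in the table. In Rps27 the run spans the start, while in its paralog Rps27l the longest run ends upstream of it. Rpl22 and Rpl7l1 have short runs in these windows, and Rpl22l1 has its longest run downstream of the start. The motif CCGGAAG, the core bound by ETS-family factors, was found on either strand in 26 of the 74 windows of 300 bases (35.1%), against 8.86% of all windows. The motif CACGTG, the E-box bound by Myc, was found in 10.8% against 7.15%, and TATAAA in 10.8% against 13.6%. These are matches of letters, and annotated starts can lie some bases from the starts used in these metastases.

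The members were abundant, but not evenly so. Levels are given in CPM, counts scaled to a common library size, on TMM-normalized library sizes and, to compare genes with each other, as mean CPM per kilobase of coding sequence over the 6 libraries. Coding lengths were found for 81 members. The median was 724 CPM per kilobase over 49 large subunit genes and 857 over 32 small subunit genes. In the large subunit the highest were Rpl41 at 9823 CPM per kilobase, which encodes the shortest protein of the ribosome and is therefore raised most by dividing by the coding length, Rplp1 at 2873 (acidic stalk) and Rpl23 at 1703. In the small subunit Rps29 stood at 2630, Rps12 at 2215 and Rps24 at 1885.

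Several proteins of the standard ribosome were listed far below the rest. Rpl24, which reaches across to the small subunit, had 8 to 17 counts per library, a mean level of 1.59 CPM per kilobase. Rps10, a protein of the small subunit head, had 102 to 217 counts per library and a mean level of 16.2 CPM per kilobase. Rpl29 stood at 31.5 and Rpl26 at 32.9 CPM per kilobase. With Rpl13a, Rpl35a and the muscle-type Rpl3l, 6 large subunit genes lay under 100 CPM per kilobase, and in the small subunit Rps10 alone did. Many ribosomal protein genes have near-identical retrocopies in the mouse genome. Whether reads were lost to such copies was not tested, so levels and changes of the low genes other than Rpl3l are uncertain. The same caution holds for Rpl6l, Rpl32l, Rps3a2, Rps3a3 and Rps4l, which resemble another member. Rpl3l, Rpl32l and Rps3a3 had fewer than 10 counts in every library and were not tested, which left 83 members, 49 of the large and 34 of the small subunit.

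The share of the library that the ribosomal protein genes took did not separate the groups. Members together held 3.16%, 2.90% and 4.39% of all gene counts in shSCR replicates 1, 2 and 3, and 4.52%, 2.56% and 2.88% in shZdhhc17 replicates 1, 2 and 3. The highest share came from a silenced library, the next from a control library, and the lowest again from a silenced one. The means were 3.48% ± 0.792 in shSCR and 3.32% ± 1.05 in shZdhhc17 (SD, n = 3 each), a difference of -0.16 percentage points, smaller than either SD. In bulk tissue, fewer cells of a type and less RNA per cell cannot be told apart.

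Large and small subunit genes moved in parallel between libraries. The large subunit took 1.93% ± 0.406 of counts in shSCR and 1.82% ± 0.551 in shZdhhc17, and the small subunit 1.55% ± 0.386 and 1.5% ± 0.499 (SD, n = 3 each). The ratio of large to small subunit counts was 1.27, 1.28 and 1.20 in shSCR and 1.19, 1.26 and 1.23 in shZdhhc17. It spanned 1.08-fold over the 6 libraries, while the summed share spanned 1.76-fold. The lowest ratios belonged to shSCR replicate 3 and shZdhhc17 replicate 1, the libraries with the highest shares.

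**Figure D1:**
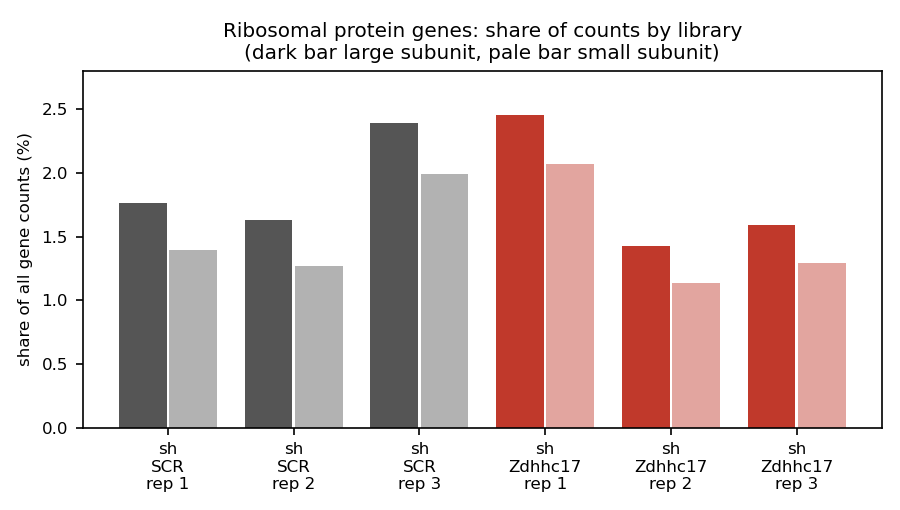
Share of all gene counts (%) taken by the large subunit (dark bars) and small subunit (pale bars) ribosomal protein genes in each of the 6 libraries, shSCR in grey and shZdhhc17 in red. The large subunit bars of shSCR replicate 3 (2.39%) and shZdhhc17 replicate 1 (2.45%) stand above the other 4 libraries, which lie between 1.43% and 1.77%.

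Most of the set followed the same profile over the libraries, and that profile crossed the groups. shZdhhc17 replicate 1 was the highest library for 67 of the 83 tested members (80.7%, against 19.0% of all genes tested), and shSCR replicate 3 for another 13 (15.7%, against 28.5% of all genes). shSCR replicate 2 was the lowest for 47 (56.6%, against 16.1% of all genes) and shZdhhc17 replicate 2 for 32 (38.6%, against 13.7%). In 65 of the 83 members (78.3%) shSCR replicate 3 and shZdhhc17 replicate 1 were both above all 4 other libraries, against 13.0% of all genes tested. The count was 37 of 49 for the large subunit and 28 of 34 for the small subunit. Choosing this pair of libraries followed from seeing the shares above.

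The median member of the large subunit lay 0.22 above its own 6-library mean in shSCR replicate 3 and 0.43 above in shZdhhc17 replicate 1, on the log2(CPM + 0.5) scale. The small subunit medians in these libraries were 0.28 and 0.44. shSCR replicate 2 stood at -0.26 for the large and -0.31 for the small subunit, and shZdhhc17 replicate 2 at -0.24 and -0.27. Each group therefore held a library well above and a library well below its mean. The spread of single members was of like size: the highest library exceeded the lowest by a median of 1.70-fold over the large subunit (range 1.21 to 2.44) and 1.72-fold over the small subunit (range 1.45 to 2.47).

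A few members departed from this profile. Rpl7l1, a paralog of Rpl7 that acts in ribosome assembly, was the steadiest, with 102, 84.5 and 86.1 CPM in shSCR and 101, 84.4 and 93.4 CPM in shZdhhc17. Rpl10, which is among the last to join the large subunit and is needed for the subunits to meet, had 539, 407 and 464 CPM in shSCR and 498, 436 and 446 CPM in shZdhhc17. In neither gene were shSCR replicate 3 and shZdhhc17 replicate 1 together above the rest. Rpl15, Rpl19, Rpl6, Rpl21, Rpl7, Rpl29, Rpl32, Rpl5, Rpl3, Rpl24, Rps3, Rps10, Rps7, Rps27l and Rps4l were among the others that broke the pattern in at least 1 library. At the other end, the stalk gene Rplp2 was among the most variable, with 325, 395 and 697 CPM in shSCR and 662, 381 and 459 CPM in shZdhhc17.

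**Figure D2:**
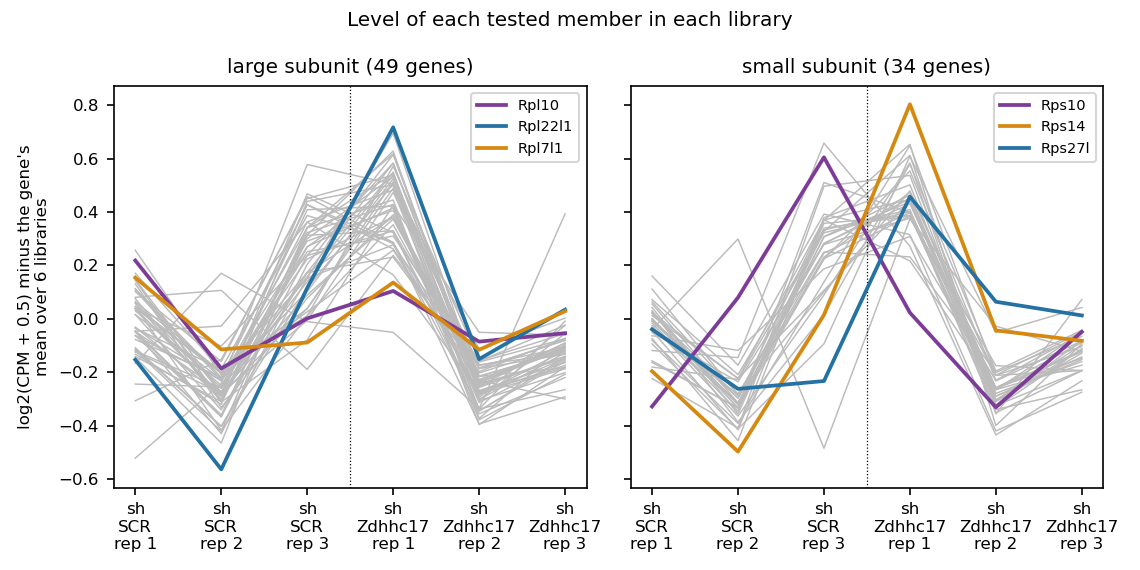
Each line is 1 tested member, drawn as log2(CPM + 0.5) in each library minus the gene's mean over the 6 libraries; libraries have no order, and lines join the values of a gene. Most lines of either panel peak at shSCR replicate 3 and shZdhhc17 replicate 1, while Rpl7l1 and Rpl10 vary least and Rps27l is below its mean in shSCR replicate 3.

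The shared profile was found in members with and without a pyrimidine run near an annotated start. Of the tested members with such a run within 15 bases of an annotated start, 27 of 31 had both high libraries above the other 4, against 22 of 29 without a run. The median SD over libraries was 0.32 and 0.31 on the log2 scale. A run was counted on either side of the annotated start, so some lie upstream of it, as in Rps27l. Annotated starts can also differ from those used. The split therefore cannot tell mRNAs that begin with the tract from those that do not. Nothing was tested here, since members share the libraries.

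Mitochondrial ribosomal protein, translation factor and ribosome biogenesis genes were high in shZdhhc17 replicate 1 but not in shSCR replicate 3. The median mitochondrial ribosomal protein gene lay at -0.00 from its mean in shSCR replicate 3 and at 0.19 in shZdhhc17 replicate 1. Translation factor genes lay at 0.00 and 0.22, and ribosome biogenesis genes at -0.01 and 0.21. The median ribosomal protein gene outside the naming rule was high in both, at 0.52 in shSCR replicate 3 and 0.29 in shZdhhc17 replicate 1. Genes outside the set with coding sequences under 600 bases (1182 genes of at least 10 CPM) lay 0.08 and 0.16 above their means, while 3660 genes with coding sequences over 1800 bases lay at -0.01 and -0.06. Ribosomal protein genes have short coding sequences, and the part of transcript length, RNA quality or cell content in the shared profile was not tested. Summed hepatocyte markers were lowest in shSCR replicate 3 at 19188 CPM and lay between 37212 and 58668 CPM in the other libraries. shZdhhc17 replicate 1 was not low in them, at 41288 CPM. All 10 hepatocyte markers, Alb included, and all 8 carcinoma epithelium markers were counted in every library, so the dissected tissue held liver as well as tumour RNA. Summed carcinoma epithelium markers ranged from 1955 to 3055 CPM in shSCR and from 1602 to 3021 CPM in shZdhhc17. Summed neutrophil markers ranged from 234 to 377 CPM in shSCR and from 472 to 710 CPM in shZdhhc17, without overlap. Summed fibroblast and stellate cell markers ranged from 3812 to 6817 CPM in shSCR, highest in replicate 3, and from 3042 to 3703 CPM in shZdhhc17, also without overlap. The part of these cell types in the members' values was not tested.

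No ribosomal protein gene passed the test of shZdhhc17 against shSCR. Total counts ran from 15832837 to 19186615 per library. The targeted transcript, Zdhhc17, stood at 32.4 to 34.2 CPM in shSCR and 25.9 to 27.8 CPM in shZdhhc17, with no overlap (log2 fold change -0.33 ± 0.11 SE, adjusted p = 0.383 by edgeR). With edgeR's quasi-likelihood test and Benjamini-Hochberg adjustment, 0 of 15567 genes (0%) had an adjusted p under 0.05, members included. At an unadjusted p under 0.05 stood 0 of the 83 members, against 1780 of all genes (11.4%, 4.72% higher and 6.71% lower). DESeq2 called 214 genes (1.46%), with 0 members, and had 1 member, Rps27l, at an unadjusted p under 0.05, against 11.9% of all genes. limma voom called 0 genes (0%) and had 0 members at an unadjusted p under 0.05, against 1682 of all genes (10.8%). In the authors' deposited table, 204 genes (0.844%) had a q under 0.05, again with 0 members, and the lowest member q was 0.443, for Rps27l. The authors' deposited table of gene sets lists the cytoplasmic ribosomal protein set with 86 genes at a normalized enrichment score of 0.754 (p = 0.916).

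Most members had small positive log2 fold changes within their standard errors. In the large subunit 33 were positive and 16 negative, with a median of 0.04 and a range of -0.26 to 0.43. In the small subunit 24 were positive and 10 negative, with a median of 0.05 and a range of -0.30 to 0.50. The median over all genes was 0.00. With library totals alone in place of TMM, the median of all genes moved to -0.13 and the members split into 25 positive and 58 negative. Relative to that shift the medians were 0.05 for either subunit. The balance of signs also hung on single libraries: without shZdhhc17 replicate 1, 8 of 83 members were positive, and without shZdhhc17 replicate 2, 76 were. Without shSCR replicate 2, 27 were positive, and without shSCR replicate 3, 72. Without both shSCR replicate 3 and shZdhhc17 replicate 1, 24 were positive and 59 negative, with a median of -0.07. With a covariate for hepatocyte markers, 76 were positive, with a median of 0.20, and 4 (Rpl22l1, Rpl35a, Rplp2 and Rps14) had an unadjusted p under 0.05 by edgeR, against 9.74% of all genes, with 0 members past the threshold.

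**Figure D3:**
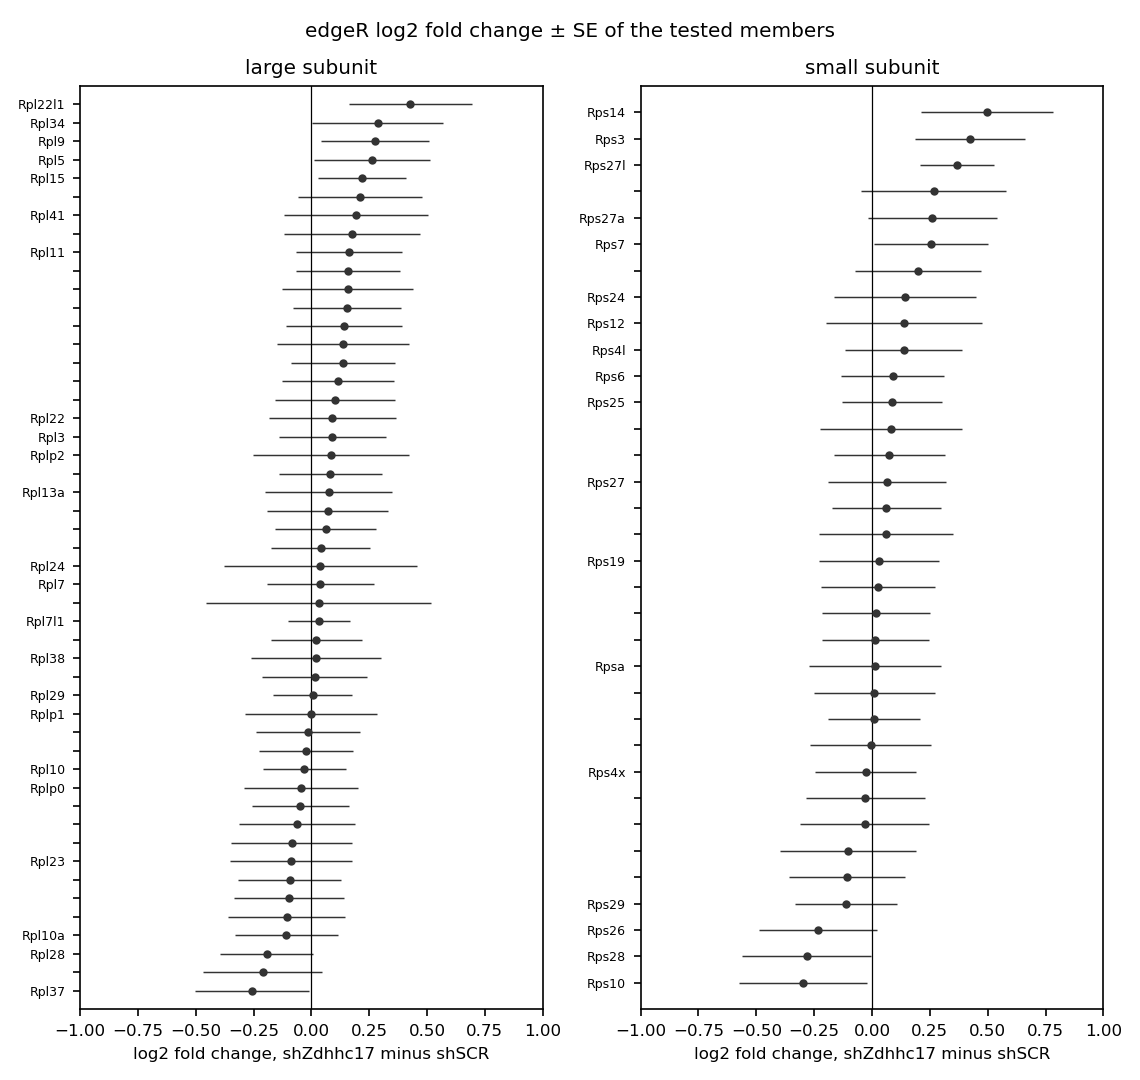
edgeR log2 fold change of shZdhhc17 against shSCR (point) with its standard error (bar, ± 1 SE) for the 49 large and 34 small subunit genes tested, ordered by value, with the names of some members beside their points. Values run from -0.30 (Rps10) to 0.50 (Rps14), and no member passed the threshold.

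Rps27l, the p53-inducible paralog of Rps27, had the smallest p of the set. Its level was 111, 95.0 and 97.0 CPM in shSCR and 157, 119 and 115 CPM in shZdhhc17. All silenced libraries lay above all control libraries, with shZdhhc17 replicate 1 the highest. The means were 101 ± 8.70 and 130 ± 23.0 CPM (SD, n = 3 each), with a log2 fold change of 0.37 ± 0.16 (SE; edgeR unadjusted p = 0.0518, adjusted p = 0.440). Without shZdhhc17 replicate 1 the log2 fold change was 0.22.

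Rps3, a protein at the mRNA entry channel that also takes part in DNA repair, was the other member whose groups did not overlap. It stood at 659, 529 and 659 CPM in shSCR and 1073, 679 and 725 CPM in shZdhhc17. The lowest silenced library was just above the highest control library. The log2 fold change was 0.42 ± 0.24 (SE; edgeR adjusted p = 0.517), and 0.20 without shZdhhc17 replicate 1. The groups were thus apart in 2 of 83 members, both higher, against 17.1% of all genes tested, 7.48% higher and 9.62% lower.

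The largest positive value belonged to Rps14, a platform protein next to the mRNA exit. Its level was 396, 321 and 458 CPM in shSCR and 791, 440 and 428 CPM in shZdhhc17. shZdhhc17 replicate 1 stood apart, and the other silenced libraries lay inside the control range. The log2 fold change was 0.50 ± 0.29 (SE; edgeR adjusted p = 0.520) and was 0.16 without shZdhhc17 replicate 1.

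Rpl22l1, the paralog of the RNA-binding protein Rpl22, had the smallest p of the large subunit. It stood at 62.3, 46.8 and 75.2 CPM in shSCR and 114, 62.4 and 71.0 CPM in shZdhhc17, with overlap. The log2 fold change was 0.43 ± 0.27 (SE; edgeR adjusted p = 0.552), and 0.13 without shZdhhc17 replicate 1. The next large subunit genes by p on the positive side were Rpl9 at 0.27, Rpl15 at 0.22, Rpl5 at 0.26 and Rpl34 at 0.29, and in the small subunit Rps7 at 0.26 and Rps27a, made as a fusion with ubiquitin, at 0.26, all log2 fold changes with overlapping groups.

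On the negative side the values were smaller. Rpl37 had 338, 282 and 433 CPM in shSCR and 384, 240 and 257 CPM in shZdhhc17, a log2 fold change of -0.26 ± 0.25 (SE). Rps10 had 6.10, 8.26 and 12.1 CPM against 7.93, 6.09 and 7.52 CPM, a log2 fold change of -0.30 ± 0.28 (SE). In each the groups overlapped, and the highest library was shSCR replicate 3. Rps28 stood at -0.28, Rps26, which contacts the mRNA near the exit, at -0.23 and Rpl28 at -0.19, with overlap in each.

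**Figure D4:**
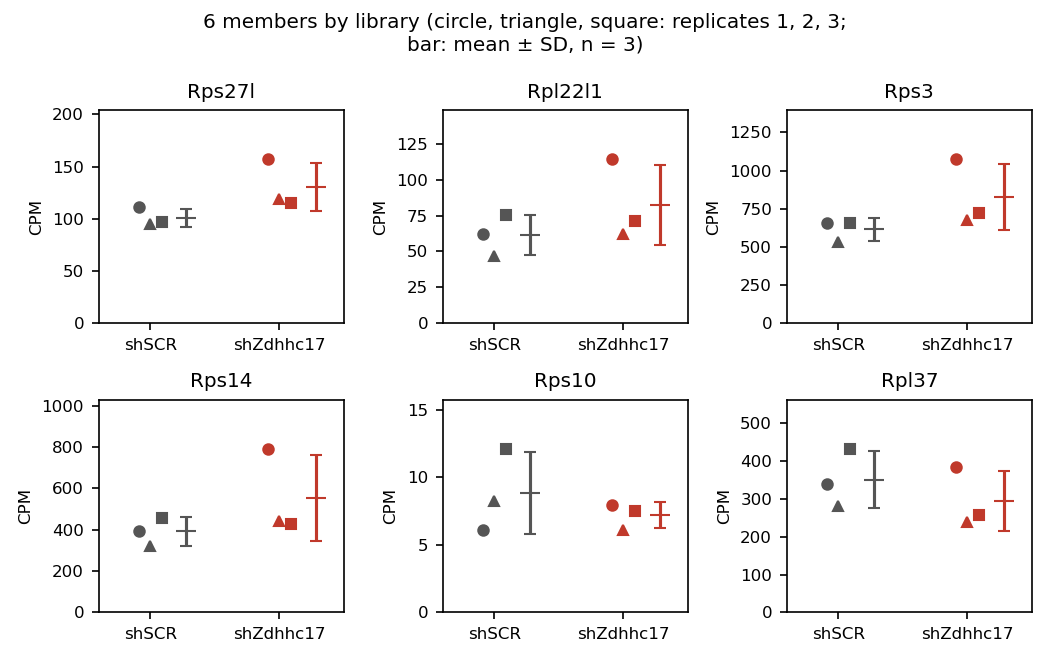
CPM of 6 members in each library, with the mean ± SD (n = 3) beside the points; each axis starts at 0. In Rps27l and Rps3 the 3 silenced libraries lie above the 3 control libraries, while in Rpl22l1, Rps14, Rps10 and Rpl37 the groups overlap.

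Rps3 and Rps27a, given above at 0.42 and 0.26, were also chosen as members known for roles beyond the bulk ribosome. The other members of this kind had log2 fold changes from -0.11 to 0.26. Rpl5 and Rpl11, which together with a ribosomal RNA bind and restrain Mdm2 when ribosome assembly fails, had log2 fold changes of 0.26 ± 0.25 and 0.16 ± 0.23 (SE). Rps6, the substrate of the S6 kinases, stood at 0.09, and Rpsa, also known as a laminin receptor, at 0.01. The stalk proteins, which recruit elongation factors, stood at -0.04 (Rplp0), -0.00 (Rplp1) and 0.08 (Rplp2). Rpl10a and Rpl38, each linked to preferential translation of certain mRNAs, stood at -0.11 and 0.02, Rps25, needed at several viral and cellular internal entry sites, at 0.09, Rps19, the gene most often mutated in Diamond-Blackfan anaemia, at 0.03, and Rpl13a, which silences inflammatory mRNAs once released from the ribosome, at 0.07. Apart from Rps3, the groups overlapped for each of these genes. With library totals alone the values of Rps6, Rpsa, Rplp2, Rpl38, Rps25, Rps19 and Rpl13a were negative, from -0.11 to -0.03.

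Ratios of a paralog to its ubiquitous counterpart are taken within a library and so do not depend on how libraries are scaled. The log2 ratio of Rpl22l1 to Rpl22 counts was -2.42, -2.52 and -2.50 in shSCR and -2.13, -2.19 and -2.13 in shZdhhc17. The silenced libraries lay close together and all above the controls. The means were -2.48 ± 0.05 and -2.15 ± 0.03 (SD, n = 3 each), a difference of 0.33 on the log2 scale. An exact two-sided permutation test gave p = 0.1, the smallest that 3 against 3 can reach, and 0.4 after Benjamini-Hochberg adjustment over 4 pairs. Leaving out any library in turn kept the difference between 0.31 and 0.36. Rpl22 itself had 334, 268 and 424 CPM in shSCR and 499, 284 and 311 CPM in shZdhhc17, following the shared profile.

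The other pairs overlapped. The log2 ratio of Rps27l to Rps27 was -2.04, -1.92 and -2.44 in shSCR and -1.99, -1.70 and -1.77 in shZdhhc17, a difference of 0.31 (exact permutation p = 0.2, adjusted p = 0.4). shSCR replicate 3 was the lowest. The ratio of Rpl7l1 to Rpl7 differed by 0.01 (exact permutation p = 1), and that of Rps4l to Rps4x by 0.18 (exact permutation p = 0.7, adjusted p = 0.933), with control libraries from -6.67 to -5.32. The testis-type paralogs Rpl39l and Rpl10l were not in the count table, and Rpl3l was too low to test.

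**Figure D5:**
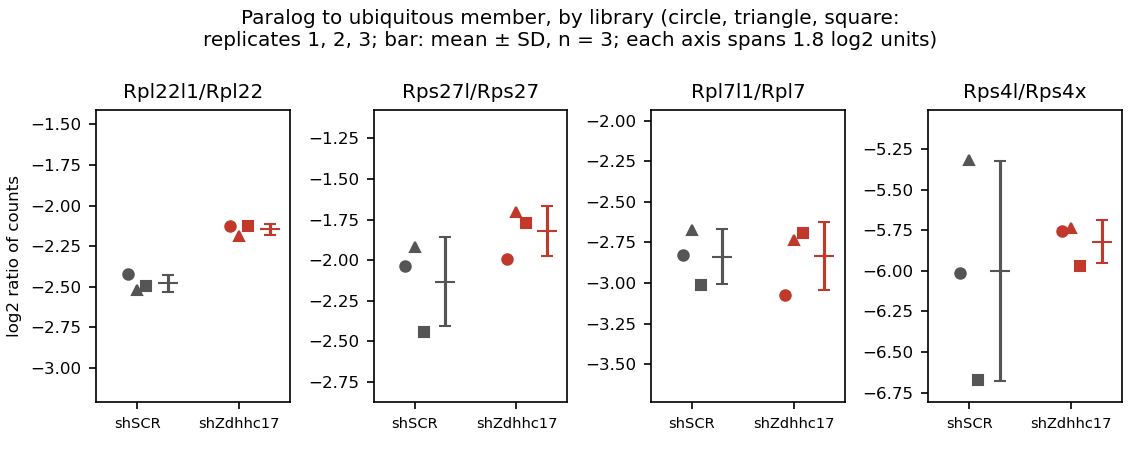
log2 ratio of the counts of a paralog to those of its ubiquitous counterpart in each library, with the mean ± SD (n = 3); each axis spans the same log2 distance. The Rpl22l1 to Rpl22 ratio lies between -2.19 and -2.13 in the 3 silenced libraries and between -2.52 and -2.42 in the 3 control libraries, and the other pairs overlap.

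The members were also compared relative to each other. When each library was scaled to the summed counts of the members, an alternative chosen after seeing the data, 0 genes passed the threshold (0%) and 0 members had an unadjusted p under 0.05, against 4.98% of all genes. On this scale the groups did not overlap in 21 of 83 members, 10 higher and 11 lower, against 9.17% of all genes tested, 2.01% higher and 7.16% lower. The scaling removes what the members share, balances higher against lower members and shrinks their spread but not that of other genes, so the counts are a description and no test of composition.

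The members with groups apart and higher on this scale were Rps14, Rpl22l1, Rps3, Rpl9, Rpl34, Rpl5, Rps27a, Rps7, Rpl39 and Rps9. Their log2 fold changes ran from 0.14 to 0.42. Rps27l, at 0.31, had overlapping groups on this scale. Rps3 took 1.87% ± 0.176 of the member counts in shSCR and 2.40% ± 0.0317 in shZdhhc17, and Rps14 took 1.18% ± 0.0189 and 1.58% ± 0.178 (SD, n = 3 each). The members with groups apart and lower included Rpl37, Rps26, Rps18, Rpl14, Rpl23, Rps29, Rpl37a, Rpl30 and Rpl27, with Rpl37 the lowest of these at -0.31. Rps28 and Rps10 each stood at -0.32 with overlapping groups. Rpl37 took 1.05% ± 0.0380 of the member counts in shSCR and 0.852% ± 0.00837 in shZdhhc17, and Rps26 took 1.56% ± 0.0265 and 1.28% ± 0.0203 (SD, n = 3 each). Both directions held genes of either subunit, 5 large and 5 small among the higher and 7 large and 4 small among the lower.

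Ribosomal proteins outside the naming rule also did not pass. Rack1, the scaffold of the small subunit head, had 986, 810 and 1017 CPM in shSCR and 1343, 892 and 944 CPM in shZdhhc17, a log2 fold change of 0.18 ± 0.24 (SE). Fau, the fusion that yields a small subunit protein, stood at -0.15 ± 0.27 (SE). None of the 5 such genes had an unadjusted p under 0.05 by edgeR.

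Among the machinery around the ribosome, too, no gene passed adjustment. Of 77 tested mitochondrial ribosomal protein genes, 59 had positive and 18 negative log2 fold changes, with a median of 0.09, and 5 had an unadjusted p under 0.05, all higher, against 4.72% of all genes higher at that p. The groups were apart in 7, all higher (9.09% of the list), against 7.48% of all genes higher and 17.1% in either direction. Without shSCR replicate 2 the list's median was 0.04, and without shZdhhc17 replicate 2 it was 0.14. Mrpl12 stood at 92.2, 74.6 and 98.7 CPM in shSCR and 137, 109 and 111 CPM in shZdhhc17, with no overlap (log2 fold change 0.42 ± 0.16 SE, edgeR adjusted p = 0.405). Mrpl3 stood at 0.39, while Mrpl24 and Mrpl51 stood at -0.17 and -0.14. With library totals alone, where the median of all genes was -0.13, the medians of the companion lists were -0.04 for mitochondrial ribosomal proteins, -0.02 for biogenesis, 0.02 for translation factors, -0.11 for mTORC1 and oligopyrimidine-tract regulators, -0.25 for Myc and its partners and -0.15 for p53 targets. The authors' deposited table of gene sets lists mitochondrial translation, 92 genes, at a normalized enrichment score of 1.40 (p = 0.0528, q = 0.372).

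Of 74 ribosome biogenesis genes, 49 had positive and 25 negative values, with a median of 0.11. Without shZdhhc17 replicate 1 the median was 0.01. At an unadjusted p under 0.05 were 4 higher and 2 lower, against 4.72% and 6.71% of all genes, and groups were apart in 11 higher and 4 lower, against 7.48% and 9.62% of all genes. Ddx21, a nucleolar helicase, had 87.5, 88.0 and 74.7 CPM in shSCR and 108, 110 and 111 CPM in shZdhhc17 (edgeR log2 fold change 0.40 ± 0.12 SE, adjusted p = 0.350). Taf1c, a subunit of the factor that recruits RNA polymerase to ribosomal RNA genes, had 11.8, 15.1 and 16.5 CPM in shSCR and 8.87, 9.08 and 9.03 CPM in shZdhhc17 (edgeR log2 fold change -0.69 ± 0.17 SE, adjusted p = 0.307). Utp18 and Utp15, parts of the complex that processes the small subunit RNA, lay on opposite sides at 0.48 and -0.31, each without overlap.

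Of 39 translation factors, 30 were positive and 9 negative, with a median of 0.15, and none had an unadjusted p under 0.05 by edgeR. Groups were apart in 8 higher and 1 lower, against 7.48% and 9.62% of all genes. Without shZdhhc17 replicate 1 the median was 0.0044. Eif4g1, the scaffold of cap-dependent initiation, stood at 419, 481 and 382 CPM in shSCR and 504, 617 and 585 CPM in shZdhhc17 (log2 fold change 0.41 ± 0.18 SE, edgeR adjusted p = 0.441). The helicase gene Eif4a2 went the other way at -0.25, with no overlap, and Eif3j1 stood at 0.25. Hnrnpa1, a nuclear ribonucleoprotein gene that the list also holds, stood at -0.23.

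The regulators of ribosomal protein mRNAs did not move to one side. Of 31 tested mTORC1 and oligopyrimidine-tract regulators, 19 were positive and 12 negative, with a median of 0.02. Larp1, which binds the cap and the tract, stood at 0.11 ± 0.17 (SE) with overlapping groups, and at -0.04 with library totals alone. Larp4 stood at 0.33 and Lamtor3, of the complex that anchors mTORC1 to lysosomes, at -0.32, each without overlap. Eif4ebp2 stood at 0.51 and Rps6kb2, an S6 kinase gene, at -0.36, each with overlapping groups. Of 12 genes for Myc and its partners, 4 were positive and 8 negative, with a median of -0.12. Myc had 83.1, 104 and 89.7 CPM in shSCR and 112, 77.8 and 72.1 CPM in shZdhhc17, a log2 fold change of -0.08 ± 0.19 (SE). Mycn was low, at 1.25, 1.67 and 2.01 CPM in shSCR and 3.65, 3.17 and 3.76 CPM in shZdhhc17, with no overlap (log2 fold change 1.10 ± 0.27 SE, edgeR adjusted p = 0.307). Mxi1, a Myc antagonist, stood at -0.44 with no overlap.

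The p53 targets, a list without Rps27l, were even in sign: 12 of 23 positive and 11 negative, with a median of 0.00. Mdm2, the ubiquitin ligase that degrades p53 and is bound by free Rpl5 and Rpl11, had 74.6, 77.9 and 78.8 CPM in shSCR and 65.6, 63.2 and 56.3 CPM in shZdhhc17. All silenced libraries lay below all control libraries, and the edgeR log2 fold change was -0.32 ± 0.11 SE (adjusted p = 0.391). Btg2 and Aen, also p53 targets, stood at 0.33 and 0.17, and Plk2 at -0.33, each with overlapping groups. Of this list 0 genes were higher and 1 was lower at an unadjusted p under 0.05 by edgeR, against 4.72% and 6.71% of all genes. Groups were apart in 0 higher and 3 lower, against 7.48% and 9.62% of all genes.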

How the data were processed

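The authors deposited raw counts per gene for 6 libraries of polyadenylated RNA, whole numbers without normalization. The submitters' processing notes name STAR 2.6.1, HTSeq, DESeq2 1.34.0 and FastQC 0.11.8 but not what each was used for. Per the file headers, the build is GRCm39 with Gencode annotation. The strand setting of the counting and the treatment of reads that map to several places are not given in the sources used here. A table of DESeq2 log2 fold changes with a ranking score, p-values and q-values, and a table of gene sets with a normalized enrichment score per set, were deposited by the authors as well, and a few of their values are quoted.

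The counts were tested here with edgeR 4.0.16 (TMM, filterByExpr, robust quasi-likelihood fit, two-sided, Benjamini-Hochberg over 15567 genes, threshold 0.05) in R 4.3.3, on 4 residual degrees of freedom. Standard errors were derived from the fold change and the F value of each gene. The procedure was also run on simulated counts, drawn for each gene independently and so without a profile shared between genes. That outcome is not reported here. Coding lengths come from a GRCm38 annotation matched by gene identifier, and promoters from RefSeq GRCm38.p6. Ratios used counts + 0.5. All 6 count columns were matched to a sample by library name. Library pairs within a group differed by a chi-square of at least 13.6 per gene, so none was counted as a repeat.

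Each result was recomputed with other scaling (DESeq2 size factors, unscaled library totals, Rn18s-rs5 removed), other filters (none, or a minimum of 10 counts in 3 libraries), other tools (DESeq2 1.42.0, voom of limma 3.58.1), a replicate block, a hepatocyte marker covariate, and with each library left out in turn. Chosen after seeing the data were library sizes set to the summed member counts and the loss of shSCR replicate 3 together with shZdhhc17 replicate 1. Named genes were the 5 of each subunit with the smallest p in each direction, the extremes of level, the paralog pairs, members with known separate roles, and the 2 genes of each companion list with the smallest p in each direction plus a few regulators; a few are not reported here. Members that break the shared profile were named after their values were seen. Earlier results of these data were known when the companion lists were chosen and when the naming rule was applied, which used symbols alone.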

Additional observations from a re-analysis of the deposited data

How the results depend on the processing

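No member passed the threshold under any of the alternatives run. Genes past it numbered 0 by edgeR as reported, 3 without a filter, 9 with the hepatocyte marker covariate and 214 with DESeq2, 0 to 1 when single libraries were left out, and 1 without shSCR replicate 3 and shZdhhc17 replicate 1 together. With the replicate block, 0 genes passed, the members' median log2 fold change was 0.03 and 1 member, Rps27l, had an unadjusted p under 0.05; the paired fit changed no call. Same-numbered libraries did not deviate together in every pair (r = -0.03, 0.25 and -0.03), so the numbers are not taken to pair the samples. Among genes whose log2 fold change exceeded its standard error, the sign turned for Rps10 (0.049) and Rps28 (0.059) with the covariate, for Rps28 without shSCR replicate 3, and for Rpl34 and Rps7 without shZdhhc17 replicate 1; the cause was not tested. With single libraries left out, Rps28 ranged from -0.50 to 0.030, Rpl34 from -0.047 to 0.46 and Rps7 from -0.0038 to 0.41. Leaving out single libraries moved the large subunit median between -0.15 and 0.18, the small subunit median between -0.19 and 0.18, the difference in share between -0.76 and 0.29 percentage points, the difference in the large to small ratio between -0.05 and -0.01, and the difference in the log2 ratio of Rps27l to Rps27 between 0.16 and 0.42, of Rpl7l1 to Rpl7 between -0.08 and 0.13, and of Rps4l to Rps4x between -0.15 and 0.52. Over the same settings the medians of the companion lists ranged from 0.04 to 0.14 for mitochondrial ribosomal proteins, 0.01 to 0.15 for biogenesis, 0.0044 to 0.18 for translation factors, 0.00 to 0.07 for mTORC1 and TOP mRNA regulators, -0.15 to -0.04 for Myc and partners and -0.04 to 0.00 for p53 targets. The median biological coefficient of variation was 0.235 over the members and 0.200 over all genes, with 3 libraries a group.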
